A study of Mus musculus with 24 samples.

Results

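A group of 10 genes, here called thalamus-linked, was higher on average in Polr3a mutant than in wild type mouse cerebrum at postnatal day 42 (P42). It holds Prkcd, Tcf7l2, Slc17a6, Lef1, Slitrk6, Synpo2, Wnt3, Plekhg1, Vangl1 and Adarb1. The thalamic markers among them are Prkcd, Tcf7l2, Slc17a6 and Lef1, and a link of the other genes to thalamus was not established. The group is 10 of the 54532 genes in the deposited count tables, taken by symbol. All 10 passed the filter on low counts in each comparison. They were selected on their higher levels in mutant cerebrum at P42, so that contrast is given as a description with no test. Cerebrum at P75 and cerebellum at P42 were not the contrast of the choice and are tested. The choice was made with earlier results of these data known, so these tests are not fully independent of it.

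The study sequenced polyadenylated RNA from C57BL/6J mice labelled Polr3a mutant or wild type. Polr3a codes for the largest RNA polymerase III subunit, part of the enzyme that transcribes transfer RNAs and other short RNAs. All groups, wild types included, were given tamoxifen at P28 to switch on recombination, so P42 and P75 lie 14 and 47 days after it. The 6 groups of 4 libraries are Polr3a mutant and wild type cerebrum at P42, mutant and wild type cerebrum at P75, and mutant and wild type cerebellum at P42. The sources used here name neither the mutated allele nor the Cre driver, and sample titles call the mutants KI. In cerebrum at P42 each group had 2 males and 2 females, at P75 all cerebrum libraries were from males, mutant cerebellum had 2 males and 2 females, and wild type cerebellum had 3 males and 1 female. Nothing in the labels says that each library is a separate animal, so p-values measure the spread between libraries.

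The thalamus relays sensory and motor signals to the cortex through glutamatergic neurons. In adult mice these neurons keep canonical Wnt activity: a Wnt ligand binds a Frizzled receptor, beta-catenin is spared from breakdown, and it joins the DNA-binding factors of the TCF and LEF family in the nucleus. Tcf7l2 and Lef1 encode 2 of these factors, Wnt3 encodes a ligand, and Vangl1 belongs to the planar cell polarity branch of Wnt signalling. Slc17a6 encodes the vesicular glutamate transporter VGLUT2, which thalamic, hypothalamic and midbrain neurons use, and Prkcd encodes protein kinase C delta, which is abundant in thalamic relay neurons. Slitrk6 encodes a neuronal membrane protein with leucine-rich repeats, Synpo2 an actin-binding protein of the synaptopodin family, Plekhg1 a guanine nucleotide exchange factor, and Adarb1 the RNA-editing enzyme ADAR2.

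Promoters are shown for Slitrk6, Synpo2 and Wnt3, the genes whose relation to the thalamic markers is examined, and for an alternative start of Tcf7l2 that carries a TCF/LEF core motif. Each is the 250 bases before a transcription start in RefSeq (GRCm38.p6), written 5′ to 3′ on the strand of the gene: chr14:110755150-110755399 (minus strand), chr3:123236150-123236399 (minus), chr11:103773925-103774174 (plus) and chr19:55895071-55895320 (plus). Capitals mark a motif match.
Slitrk6: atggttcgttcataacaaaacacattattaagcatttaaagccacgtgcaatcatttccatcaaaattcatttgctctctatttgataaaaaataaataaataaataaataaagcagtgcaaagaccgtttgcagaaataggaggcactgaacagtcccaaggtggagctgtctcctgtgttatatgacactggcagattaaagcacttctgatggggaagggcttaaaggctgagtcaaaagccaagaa
Synpo2: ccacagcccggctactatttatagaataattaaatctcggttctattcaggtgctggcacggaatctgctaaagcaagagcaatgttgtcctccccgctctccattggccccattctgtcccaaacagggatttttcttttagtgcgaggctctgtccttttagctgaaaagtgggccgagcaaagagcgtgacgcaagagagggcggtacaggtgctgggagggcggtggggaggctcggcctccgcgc
Wnt3: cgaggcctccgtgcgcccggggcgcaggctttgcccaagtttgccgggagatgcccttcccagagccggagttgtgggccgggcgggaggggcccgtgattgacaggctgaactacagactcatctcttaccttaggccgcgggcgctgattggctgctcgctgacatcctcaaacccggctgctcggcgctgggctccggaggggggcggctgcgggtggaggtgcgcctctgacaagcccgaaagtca
Tcf7l2: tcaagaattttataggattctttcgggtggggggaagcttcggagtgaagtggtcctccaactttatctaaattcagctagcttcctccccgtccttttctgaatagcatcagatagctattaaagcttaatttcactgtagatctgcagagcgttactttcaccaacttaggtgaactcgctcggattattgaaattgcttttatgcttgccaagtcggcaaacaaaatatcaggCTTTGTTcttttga
The motifs searched on both strands were the string CTTTGAA, the string CTTTGAT, the string CTTTGTA and the string CTTTGTT. Of the 10 genes, 9 matched the promoter table, with 15 promoters, and Vangl1 was not used. A match was found in 3 of the 15 promoters, each at an alternative start of Lef1, Prkcd or Tcf7l2, against 14.8% of all 32851 promoters in the table. The 250 bases shown for Slitrk6, Synpo2 and Wnt3 hold none of the 4 letter strings. In the Tcf7l2 promoter shown, CTTTGTT begins 14 bases before the start, on the strand of the gene. No match says only that these letters are not in this window.

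Library totals ran between 13832721 and 23175864 counts, and the sum of cerebellar neuron markers was 1301 to 4789 CPM (counts in each 1000000) in cerebellum against 135 to 289 CPM in cerebrum. Levels are CPM after TMM scaling within each tissue and age, so values of different tissues or ages set side by side were scaled separately. Polr3a itself averaged 36.7 ± 2.6 CPM in mutants, against 40.6 ± 3.8 CPM in wild types, for cerebrum at P42, 31.6 ± 1.3 and 33.8 ± 3.6 CPM at P75, and 52.2 ± 5.7 and 51.3 ± 8.8 CPM in cerebellum (SD, n = 4 each). It was not called in any comparison, and, with the allele not named, its level does not check the labels. At P42 mutant cerebrum replicates 3 and 4 stood apart: the summed level of 12 cortical excitatory neuron markers was 378 and 507 CPM there, against 2209 and 1716 CPM in mutant replicates 1 and 2 and 1951 to 2820 CPM in wild types. Wild type replicate 1 also stood apart for Prkcd. Overlapping genes of the annotation held at most 2.16% of the counts of a member (Lef1), and the sources used here do not state strand use in counting.

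In cerebrum at P42 all 10 genes were higher on average in mutants, with log2 fold changes of 0.62 to 2.69 and a median of 1.73 against 0.01 over all 18205 genes tested. In 9 of the 10 every mutant library lay above every wild type library, which was so for 3.53% of all genes (the reverse order held for 2.88%). With an adjusted p under 0.05 by edgeR's quasi-likelihood test and Benjamini-Hochberg adjustment, 3 genes were called of all tested (0.0165%), all higher in mutants, and these are Slitrk6, Synpo2 and Wnt3. DESeq2, run as an alternative at the same threshold, called 233 of 17499 genes (1.33%), among them each of the 10 except Slc17a6. Since this contrast chose the genes, nothing is read from these counts. The number called by edgeR was 11 when mutant replicate 1 was left out, 6 when wild type replicate 1 was, 1 when wild type replicate 3 was, and 0 for each of the other 5 libraries. In bulk tissue more thalamus in the dissected piece, more cells of a type and more RNA per cell cannot be told apart.

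Among the thalamic markers, Prkcd had 273, 144, 245 and 205 CPM in the 4 mutant libraries, against 87.1, 22.2, 19.6 and 18.3 CPM in the 4 wild type libraries. All mutants lay above all wild types, and wild type replicate 1 stood well above the other wild types. Its log2 fold change was 2.69 ± 0.41 (SE), and 3.35 without wild type replicate 1. Tcf7l2 had 57.5, 60.4, 131 and 126 CPM in mutants, against 27.6, 7.94, 50.4 and 20.4 CPM in wild types (1.99 ± 0.47). Mutant replicates 3 and 4 were the high ones for this transcription factor, and wild type replicate 3 came close to the lowest mutant. Slc17a6 had 133, 168, 313 and 298 CPM in mutants, against 52.6, 36.4, 148 and 112 CPM in wild types (1.40 ± 0.45). Its groups overlapped, since wild type replicate 3 exceeded mutant replicate 1. Lef1 had 13.5, 10.7, 14.5 and 19.2 CPM in mutants, against 8.55, 5.45, 7.15 and 6.04 CPM in wild types (1.104 ± 0.22). For Lef1 the mutants again lay above all wild types.

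Slitrk6 had 12.3, 10.9, 17.7 and 16.02 CPM in mutants, against 4.19, 2.17, 2.81 and 2.45 CPM in wild types (log2 fold change 2.32 ± 0.24). Synpo2 had 72.1, 41.0, 79.9 and 55.7 CPM in mutants, against 21.8, 12.5, 9.69 and 12.4 CPM in wild types (2.12 ± 0.24). Wnt3 had 14.8, 12.98, 17.0 and 15.6 CPM in mutants, against 6.17, 3.55, 3.65 and 2.86 CPM in wild types (1.92 ± 0.22). The groups of these 3 genes are separated by gaps wider than the range within wild types. For all 3, mutant replicate 2, the mutant lowest in Prkcd, was also the lowest mutant, and wild type replicate 1, the wild type highest in Prkcd, was also the highest wild type.

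Plekhg1 had 113, 58.9, 101 and 92.5 CPM in mutants, against 37.0, 21.4, 25.2 and 40.5 CPM in wild types (1.54 ± 0.24). Vangl1 had 22.4, 14.3, 22.2 and 18.3 CPM in mutants, against 9.97, 5.68, 6.35 and 8.53 CPM in wild types (1.32 ± 0.20). Adarb1 had 421, 344, 474 and 482 CPM in mutants, against 295, 258, 278 and 285 CPM in wild types (0.62 ± 0.13). Mutant replicate 2 was the lowest mutant for each of these as well, and the wild types of Adarb1 lay within 258 to 295 CPM. Per kilobase of gene length, the mean levels in mutants fell into 3 tiers: Slc17a6, Prkcd and Adarb1 at 42.2, 39.1 and 38.2 CPM per kb, Tcf7l2 and Plekhg1 at 10.7 and 10.4, and the other 5 at 1.65 (Lef1) to 4.91 (Wnt3). In wild types Adarb1 stood highest at 24.8 CPM per kb, followed by Slc17a6 at 16.2 and Prkcd at 6.63, and Slitrk6 stood lowest at 0.685. In mutants the ranges of neighbours within a tier overlapped.

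**Figure D1:**
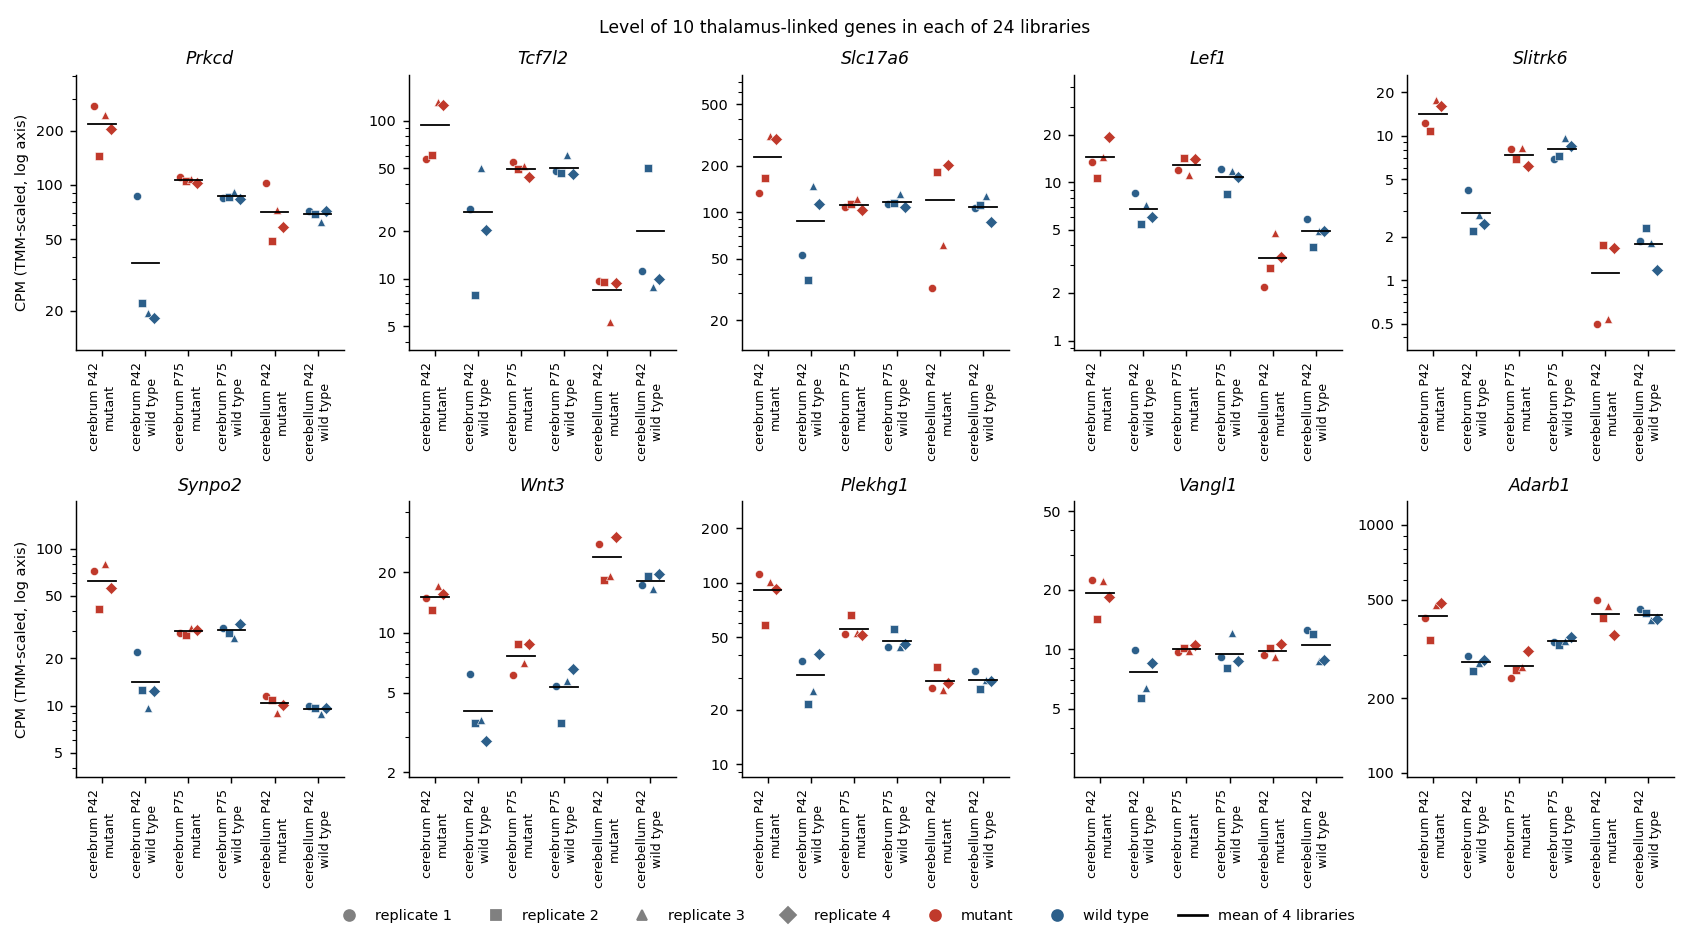
Level of each gene in every library, as TMM-scaled CPM on a log axis. Points are libraries, shaped by replicate number and coloured by genotype, and the bar is the mean of 4 libraries. At P42 the mutant cerebrum libraries lie above the wild types in 9 of 10 genes, and at P75 and in cerebellum the groups overlap for most genes.

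Other regional marker lists moved in the same P42 libraries. Of 16 thalamus genes that are not among the 10, 15 had positive log2 fold changes, with a median of 1.33 over the 16. In 8 all mutants lay above all wild types, as in 3.53% of all genes. The summed level of the 16 was 899 to 1407 CPM in mutants, against 566 to 772 CPM in wild types. As with Prkcd, mutant replicate 2 was the lowest mutant and wild type replicate 1 the highest wild type. The list is not particular to thalamus, since its sum in cerebellum was 1178 to 2630 CPM. Hypothalamic markers summed to 22.1, 93.5, 170 and 136 CPM in mutants, against 7.76, 9.22, 26.7 and 53.1 CPM in wild types. All 13 tested of 16 were positive, and Kiss1 was at 0 in all 8 libraries. Midbrain and hindbrain monoamine markers summed to 29.1, 139, 273 and 238 CPM in mutants, against 22.1, 21.8, 139 and 125 CPM in wild types (10 of 10 positive). Of the 7 habenula markers 6 were positive, with a median log2 fold change of 0.98. Their sum was 54.3 to 81.7 CPM in mutants and 66.4 to 87.7 CPM in wild types. Nwd2, the gene of that list with a negative value, had the largest share of the sum, at 36.9 ± 11.8 CPM in mutants, against 62.4 ± 11.47 CPM in wild types (SD, n = 4 each).

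Mutant replicate 1 had the highest Prkcd of all libraries, while its hypothalamic and monoamine sums lay within the range of the wild types. Other thalamic markers did not go with Prkcd there. The same library was the lowest mutant in Tcf7l2 (57.5 CPM) and in Slc17a6 (133 CPM, below wild type replicate 3 at 148 CPM). Cortical markers had negative log2 fold changes in 11 of 12 and striatal markers in 8 of 9, and oligodendrocyte markers were positive in 9 of 10, with sums of 8197 to 12051 CPM in mutants and 5992 to 8640 CPM in wild types. Choroid plexus markers summed to 383 to 850 CPM in mutants and 666 to 2091 CPM in wild types. Without mutant replicates 3 and 4, the libraries low in cortical markers, the log2 fold changes were 2.59 for Prkcd, 2.02 for Slitrk6, 1.96 for Synpo2 and 1.80 for Wnt3, a fit chosen after seeing the data. In that fit they were lower for Tcf7l2 (1.38), Slc17a6 (0.80), Lef1 (0.83) and Adarb1 (0.44), and were 1.41 for Plekhg1 and 1.23 for Vangl1. The part of the habenular, hypothalamic, monoamine, striatal, oligodendrocyte and choroid plexus lists in the result was not tested.

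**Figure D2:**
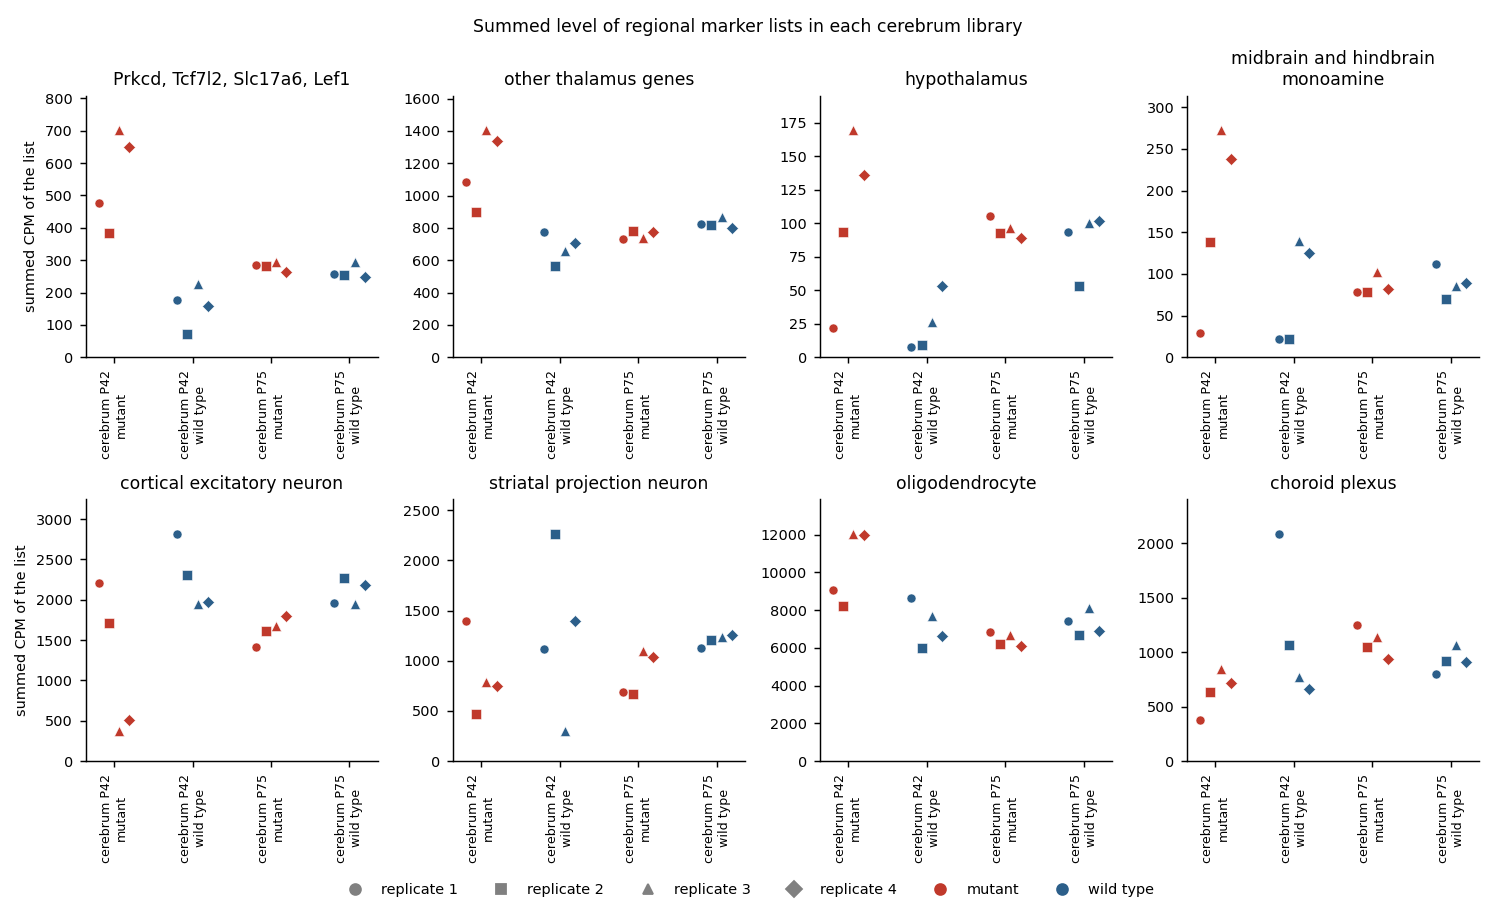
Summed CPM of regional marker lists in each cerebrum library, from 0 on a linear axis. Points are libraries, shaped by replicate number. At P42 the 4 thalamic markers and the other thalamus genes are higher in all mutants, while the hypothalamic sum of mutant replicate 1 (22.1 CPM) lies among the wild types and the cortical sums of mutant replicates 3 and 4 are the lowest.

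Whether Slitrk6, Synpo2 and Wnt3 follow the thalamic markers was examined in the deviation of each of the 16 cerebrum libraries from the mean of its own group, on the log2(CPM + 1) scale, which leaves out the genotype difference. Over both ages the median Pearson correlation of the 12 pairs of the 3 genes with the 4 markers was 0.46, with 10 of 12 positive. The pairs ran from r = -0.26 (Synpo2 with Slc17a6) to r = 0.85 (Synpo2 with Prkcd). In P42 libraries alone the median was 0.57, and in P75 libraries alone it was -0.14 with 4 of 12 positive. No pair among the 24 of 6 genes with 4 markers reached an adjusted p under 0.05 by r or by Spearman's coefficient, in a permutation test within groups with Benjamini-Hochberg adjustment over the 24 pairs, at either age or over both. The smallest p that the 576 rearrangements within an age allow is 0.00174. The 4 markers did not all vary together. Over the 16 libraries, r with the mean deviation of the 4 markers was 0.42 for Prkcd and 0.95 for Tcf7l2. Among wild types at P42, replicate 1 was highest in Prkcd and replicate 3 in Slc17a6. A median or mean over the 4 markers thus pools unlike relations, here and below.

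The markers differed in how closely the 3 genes went with them. With Prkcd all 3 were positive over the 16 libraries, at r = 0.65 for Slitrk6, 0.85 for Synpo2 and 0.66 for Wnt3. Synpo2 with Prkcd had a Spearman coefficient of 0.67 and a permutation p of 0.0138 for r (adjusted 0.110), and r stayed at 0.86 without the 2 libraries farthest from the median Prkcd deviation. Slitrk6 with Prkcd had a Spearman coefficient of 0.61 and a permutation p of 0.0559 for r (adjusted 0.202), and r was 0.45 without those 2 libraries. Wnt3 with Prkcd had a Spearman coefficient of 0.32 and a permutation p of 0.0417 (adjusted 0.200), and r was 0.26 without the 2 farthest libraries, so the relation over both ages rests on them. Within P42 alone, r of Wnt3 with Prkcd was 0.92 without the 2 libraries farthest at that age. Within P42 the 3 correlations with Prkcd were 0.73, 0.88 and 0.94 for Slitrk6, Synpo2 and Wnt3, and within P75 they were 0.80, -0.61 and -0.36.

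With Lef1, Wnt3 had r = 0.72 and a Spearman coefficient of 0.74 over both ages (permutation p of 0.0031 for r, adjusted 0.0742). Without the 2 libraries farthest in Lef1, both P42 mutants, r over both ages was 0.82. Within P42 r was 0.67. Within P75 it was 0.82, with a Spearman coefficient of 0.52, and fell to 0.59 without the 2 libraries farthest at that age. Slitrk6 with Tcf7l2 had r = 0.63 and a Spearman coefficient of 0.82 (permutation p of 0.0589 for r, adjusted 0.202; 0.00519 for the Spearman coefficient, adjusted 0.0623), and r = 0.67 and 0.79 within P42 and P75. Over both ages the other pairs with these markers were lower. With Lef1, r was 0.54 for Slitrk6 and 0.37 for Synpo2, 0.84 and 0.48 within P42, and -0.19 and -0.14 within P75. Within P42 Slitrk6 with Lef1 (permutation p of 0.0174 for r, adjusted 0.139) thus exceeded Wnt3 with Lef1 and Slitrk6 with Tcf7l2. With Tcf7l2, r was 0.04 for Synpo2 and 0.22 for Wnt3, 0.07 and 0.33 within P42, and -0.61 and -0.13 within P75. With Slc17a6, r was 0.32 for Slitrk6, -0.26 for Synpo2 and -0.14 for Wnt3, with permutation p of 0.419, 0.594 and 0.833. At P42 wild type replicate 3, the wild type highest in Slc17a6, was the wild type lowest in Synpo2. For Plekhg1, Vangl1 and Adarb1 the median r of their 12 pairs was 0.36 over both ages, with all 12 positive, and -0.10 within P75, with 5 of 12 positive.

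The 2 ages differed in how far libraries of a group spread. The pooled SD within groups of log2(CPM + 1) was 0.79 at P42 and 0.054 at P75 for Prkcd, a ratio of 14.5. The ratio was 7.03 for Slc17a6, 5.41 for Tcf7l2 and 4.57 for Synpo2, but 1.53 for Lef1, 1.63 for Slitrk6 and 1.06 for Wnt3. Correlations at P75 with Prkcd, Slc17a6 and Tcf7l2 thus rest on smaller deviations of those markers than at P42. Lef1, Slitrk6 and Wnt3 had as few as 127, 108 and 53 counts in a P75 library, against at least 1272 for Prkcd. The part of counting noise in their spread was not tested. With the level of the other thalamus genes as a covariate, a fit chosen after seeing the data, the log2 fold changes at P42 were 1.32 for Slitrk6, 1.54 for Synpo2 and 1.47 for Wnt3, against 1.81 for Prkcd, 0.17 for Lef1, 0.02 for Tcf7l2 and -0.32 for Slc17a6. With the mean of the 4 markers as a covariate they were 1.17 for Slitrk6, 1.93 for Synpo2 and 1.46 for Wnt3, and with Prkcd alone, a fit also chosen after seeing the data, 1.42, 0.79 and 0.83. The covariates themselves differ between the genotypes at P42, so these values describe the 8 libraries and carry no test.

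**Figure D3:**
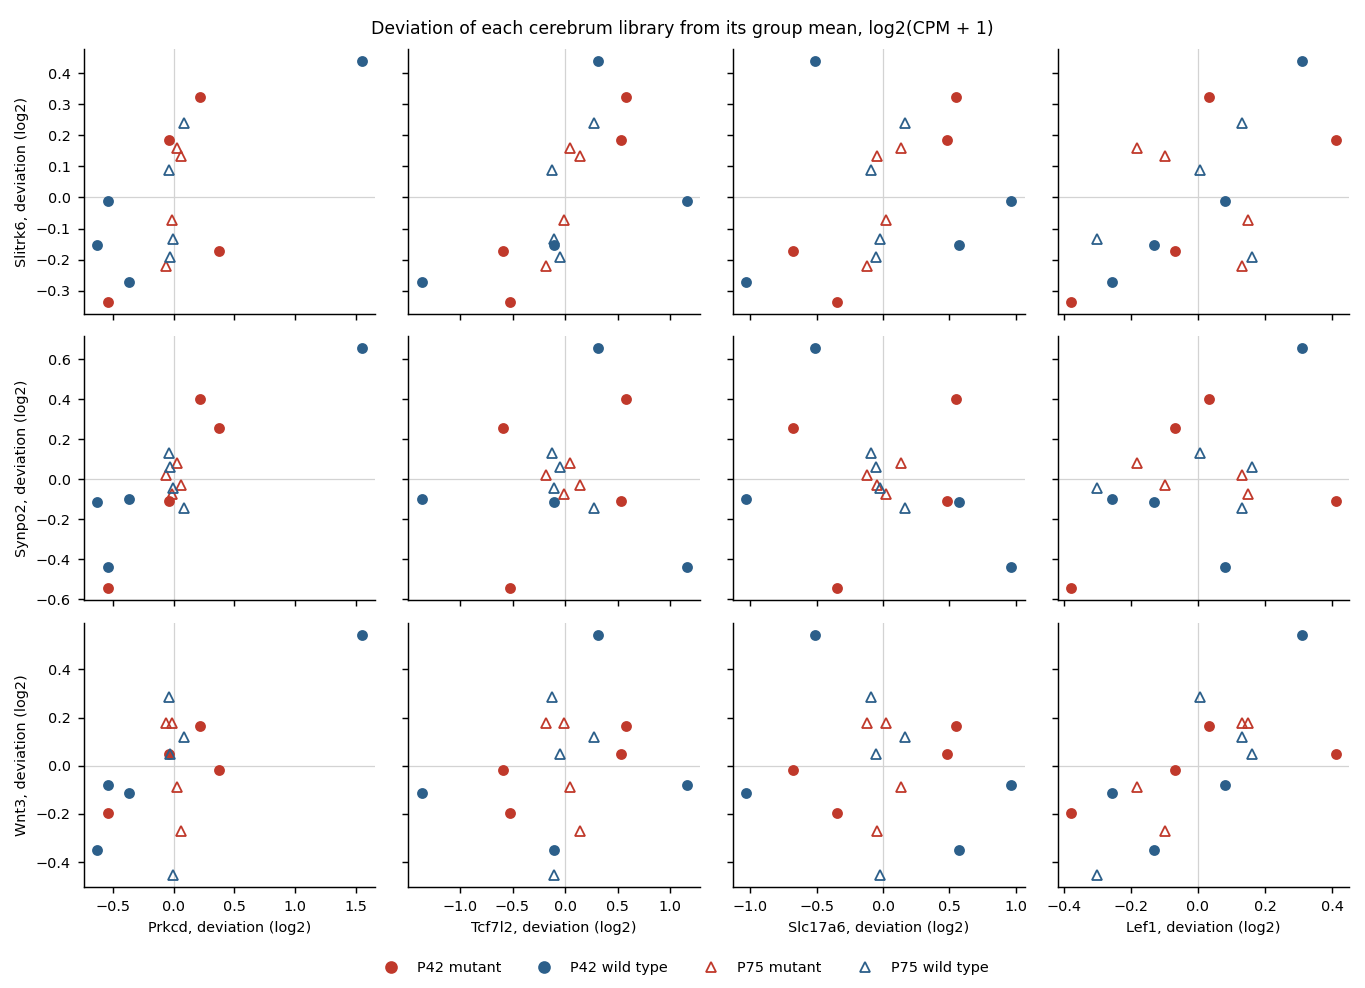
Deviation of each cerebrum library from the mean of its own group in log2(CPM + 1), for Slitrk6, Synpo2 and Wnt3 (rows) against each thalamic marker (columns). Filled circles are P42 and open triangles P75 libraries, coloured by genotype. P75 libraries sit close to 0 on the Prkcd axis, where their pooled SD is 0.054 against 0.79 at P42.

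The level of a gene relative to the markers was taken as its log2(CPM + 1) minus the mean of the 4 markers in the same library. At P42 the relative level of Slitrk6 was -2.56 ± 0.12 in mutants and -2.72 ± 0.37 in wild types (SD, n = 4 each), a difference of 0.16. For Synpo2 the difference was 0.27 and for Wnt3 -0.10, and libraries of the genotypes overlapped in each. Relative to the markers, Plekhg1 differed by -0.27 and Vangl1 by -0.57, with overlap. Adarb1 differed by -1.19, with 2.497, 2.41, 2.08 and 2.11 in mutants, all below 3.14, 4.11, 3.05 and 3.58 in wild types. With Prkcd left out of the marker mean, Wnt3 differed by 0.24 and Plekhg1 by 0.06, and with Lef1 left out Slitrk6 differed by -0.12. At P75 the differences were -0.23 for Slitrk6, -0.14 for Synpo2 and 0.35 for Wnt3, with exact two-sided permutation p of 0.114, 0.257 and 0.114. Adarb1 differed by -0.46 at P75 with all mutants below all wild types, an exact p of 0.0286 that is the smallest 4 against 4 libraries allow (0.171 after adjustment over 6 genes).

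In cerebrum at P75, 2502 of 17523 genes were called (14.3%) by edgeR's quasi-likelihood test with Benjamini-Hochberg adjustment, 1342 higher (7.66%) and 1160 lower (6.62%) in mutants, and 28.8% had an unadjusted p under 0.05. Of the 10 genes 1 rose, 1 fell and 8 were not called, and their median log2 fold change was 0.03 against 0.00 over all genes. Scaling by library size alone, chosen after seeing the data, moved the median of all genes to 0.11 and gave 2313 higher and 547 lower calls. The number called fell to 1356 with mutant replicate 1 left out and to 1634 with wild type replicate 4 left out.

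Prkcd rose at P75, with 111, 105, 108 and 102 CPM in mutants, against 84.3, 85.8, 91.5 and 83.7 CPM in wild types. All mutants lay above all wild types, as in 10.1% of genes, and the log2 fold change was 0.30 ± 0.07 (edgeR, Benjamini-Hochberg adjusted p = 0.00700, and 0.00791 to 0.0320 with each library left out). Adarb1 fell, with 242, 261, 268 and 309 CPM in mutants, against 339, 328, 340 and 355 CPM in wild types. All mutants lay below all wild types, as in 9.87% of genes, and the log2 fold change was -0.33 ± 0.08 (edgeR, adjusted p = 0.0108). It was not called with the mean of the 4 markers as a covariate (-0.30, edgeR adjusted p = 0.112). That mean includes Prkcd, and with it fewer genes of the whole table were called. The lost call is therefore not read as a relation to the markers. With Prkcd as a covariate, chosen after seeing the data, the log2 fold change of Adarb1 was 0.040 and it was not called. Prkcd itself separates the genotypes at P75, and with that covariate no gene of the whole table was called. That fit therefore cannot tell whether the fall of Adarb1 goes with Prkcd. The sign of Adarb1 at P75 is opposite to that at P42, and the difference between ages was not tested.

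The 3 genes called at P42 were not called at P75, though Wnt3 was called with library size scaling (0.62, edgeR adjusted p = 0.0479) and with the other thalamus genes as a covariate (0.73, edgeR adjusted p = 0.0291), both chosen after seeing the data. Slitrk6 had 8.13, 6.91, 8.28 and 6.14 CPM in mutants, against 6.88, 7.203, 9.61 and 8.55 CPM in wild types. Its log2 fold change was -0.13 with a 95% interval of -0.48 to 0.21. Synpo2 had 29.0, 28.2, 31.4 and 30.1 CPM in mutants, against 31.4, 29.2, 27.1 and 33.0 CPM in wild types. Libraries of both genotypes are intermixed in Synpo2, and its log2 fold change was -0.02 with an interval of -0.22 to 0.17. The differences between ages were not tested. Wnt3 had 6.12, 8.73, 7.08 and 8.73 CPM in mutants, against 5.42, 3.53, 5.74 and 6.58 CPM in wild types. Of the mutants 3 exceeded every wild type, and the log2 fold change of 0.52 ± 0.20 had an adjusted p of 0.0929 by edgeR (interval 0.10 to 0.95).

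The other genes gave small values at P75. Tcf7l2 (-0.01 ± 0.10) and Slc17a6 (-0.06 ± 0.08) averaged 49.9 and 112 CPM in mutants and 50.3 and 117 CPM in wild types. Lef1 had 11.9, 14.3, 11.2 and 14.1 CPM in mutants, against 12.05, 8.47, 11.8 and 10.7 CPM in wild types (0.26 ± 0.14). Plekhg1 gave 0.23 ± 0.10 (edgeR adjusted p = 0.154, and 0.0458 without wild type replicate 2, with a log2 fold change of 0.30), and Vangl1 gave 0.08 ± 0.15. Of the other 16 thalamus genes 15 were not called and 1 fell at P75, namely Necab1 (-0.45 ± 0.10), which encodes a neuronal calcium-binding protein. Their sums were 730 to 780 CPM in mutants and 799 to 865 CPM in wild types. At P75 the cortical list fell in 8 of 12 genes and the striatal list in 4 of 9. Of all genes 6.62% fell, and the 1 of 16 thalamus genes is near that share. Cortical sums were 1415 to 1804 CPM in mutants and 1946 to 2273 CPM in wild types, and the part of these lists in the fall of Adarb1 was not tested.

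**Figure D4:**
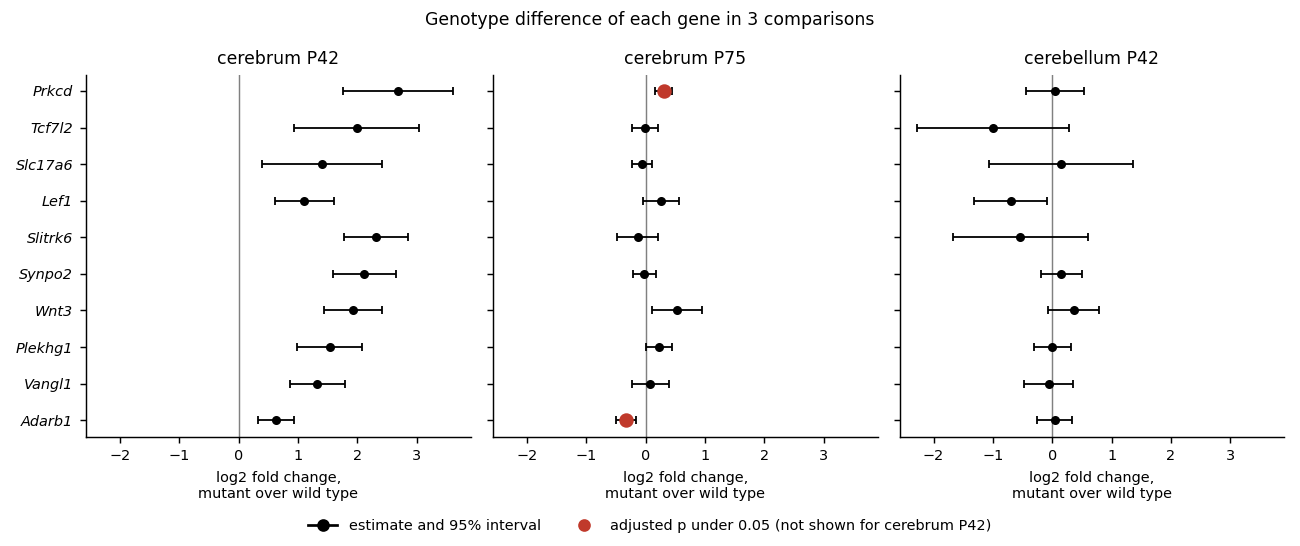
Log2 fold change, mutant over wild type, of each gene in 3 comparisons, with 95% intervals from edgeR. Red points mark an adjusted p under 0.05 and are not used for cerebrum at P42, which chose the genes. The values run from 0.62 to 2.69 in cerebrum at P42, from -0.33 to 0.52 in cerebrum at P75 and from -0.997 to 0.36 in cerebellum.

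In cerebellum at P42 none of the 10 genes was called, where 2 of 17616 genes were (0.0114%, 1 higher and 1 lower, 0.00568% each) by edgeR's quasi-likelihood test with Benjamini-Hochberg adjustment, 819 (4.65%) had an unadjusted p under 0.05 and DESeq2 called 41. Among the 10 genes 1 (Lef1) had an unadjusted p under 0.05 and DESeq2 called 0. The 10 genes had a median log2 fold change of 0.02, 5 were positive, and the genotypes overlapped in all 10, while all mutants lay above all wild types in 1.85% of genes and below them in 1.58%. The number called over all genes was 1 when mutant replicate 2 or any single wild type library was left out. Synpo2 had 11.6, 10.8, 8.93 and 10.04 CPM in mutants, against 9.88, 9.71, 8.83 and 9.58 CPM in wild types (0.15, interval -0.19 to 0.49). Wnt3 had 27.6, 18.4, 19.2 and 30.2 CPM in mutants, against 17.3, 19.1, 16.5 and 19.6 CPM in wild types (0.36, interval -0.07 to 0.79). The differences from cerebrum were not tested. Slitrk6 was low in cerebellum, with as few as 7 counts in a library, at 0.495 to 1.75 CPM in mutants and 1.18 to 2.29 CPM in wild types.

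Among the markers in cerebellum, Prkcd gave 0.05 ± 0.22, Slc17a6 0.14 ± 0.54 and Lef1 -0.70 ± 0.27 (edgeR, unadjusted p = 0.0289 and adjusted p = 0.967). Slc17a6 had 32.1, 182, 61.3 and 203 CPM in mutants, against 107, 112, 128 and 86.1 CPM in wild types. In mutant replicates 2 and 4, where Slc17a6 was high, the sum of 6 cerebellar neuron markers was 2115 and 1301 CPM, against 4789 and 4352 CPM in mutant replicates 1 and 3, and the part of that list in the level of Slc17a6 was not tested. Tcf7l2 gave -0.997 ± 0.57, with wild type replicate 2 at 50.5 CPM and the other 3 wild types at 8.83 to 11.2 CPM, against 5.35 to 9.75 CPM in mutants. Without wild type replicate 2 its log2 fold change was -0.21. Adarb1 had 360 to 497 CPM in mutants and 415 to 456 CPM in wild types (0.04 ± 0.13). The comparisons in cerebrum and cerebellum share no libraries.

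The Wnt pathway beyond these genes was read from fixed lists. At P42 in cerebrum the other ligands had a median log2 fold change of -0.19 (15 of 18 tested, 6 positive), receptors 0.17 (15 tested), the beta-catenin core 0.03 (16 tested), feedback and target genes 0.07 (15 of 17 tested) and planar cell polarity genes -0.05 (11 tested), against 0.01 over all genes. At P75 7.66% of all genes rose and 6.62% fell, and the shares of called receptors and core genes were near that background. Falls were more frequent among ligands (2 of 15), planar cell polarity genes (3 of 11) and paralogs (4 of 21). These lists are small and were not tested as sets, and nothing particular to the pathway is read from them at P75. There 2 ligands fell, Wnt2 (-1.73 ± 0.32) and Wnt10a (-0.82 ± 0.14), of 15 tested. Among receptors Fzd6 rose (0.42 ± 0.13) and Fzd3 fell (-0.36 ± 0.11). In the beta-catenin core Axin1, a scaffold of the complex that marks beta-catenin for breakdown, rose (0.33 ± 0.10) and Apc, another member of that complex, fell (-0.49 ± 0.10). Dkk3 fell among feedback and target genes (-0.45 ± 0.08), and in the planar cell polarity list the Vangl1 partners Prickle1 (-0.31 ± 0.08) and Prickle2 (-0.29 ± 0.08) and the cadherin Celsr2 (-0.25 ± 0.08) fell. Paralogs of the 10 genes gave 2 rises and 4 falls of 21 tested, among the falls Synpo (-0.57 ± 0.10), the synaptopodin gene, Prkcb (-0.39 ± 0.09) and Prkcz (-0.32 ± 0.08). Their median log2 fold change was -0.14 at P75 and -0.23 at P42.

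Genes were also ranked by how closely their deviations over the 16 cerebrum libraries followed the mean deviation of the 4 markers, among 13691 genes, as a description. Tcf7l2, itself part of that mean, ranked highest (r = 0.95). The 8 genes that follow it were Rgs3 (r = 0.93), Kcng4 (0.93), Pou4f1 (0.92), Hcn2 (0.92), Plekhd1 (0.92), Shox2 (0.92), Adssl1 (0.92) and Fads6 (0.92), and within P75 alone their r ran from 0.43 (Hcn2) to 0.79 (Adssl1). Shox2, a homeobox factor, stands in the list of other thalamus genes, and Pou4f1, a POU factor, in that of the habenula. The other markers, also part of that mean, ranked 287 (Lef1, r = 0.73), 445 (Slc17a6, 0.70) and 2574 (Prkcd, 0.42). Of the members that are not markers, Slitrk6 ranked 201 (r = 0.77), Adarb1 1014 (0.60), Vangl1 1416 (0.55), Plekhg1 2382 (0.44), Wnt3 2433 (0.44) and Synpo2 3678 (0.32). Prkcd thus ranked below Wnt3, and a low rank for the mean does not say that a gene departs from each marker. For likeness to Prkcd alone Synpo2 ranked 21 of 13690 genes, Wnt3 289 and Slitrk6 348. For likeness to Lef1 they ranked 2802, 149 and 983, for Tcf7l2 6674, 4699 and 816, and for Slc17a6 9866, 8293 and 2977. Libraries were scaled together within an age, and P42 libraries, with their wider spread, weigh most in each r.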

How the data were processed

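The data are polyA RNA-seq read counts from 24 mouse libraries. Per the submitters' processing notes the authors used HISAT2, DESeq2 and genome build mm10; the read counter, annotation release and versions are not given in these sources. The deposited tables hold whole-number counts per gene, not normalized; the authors' own comparison tables were not used, and 0 sample columns lacked a sample.

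Each comparison set 4 mutant against 4 wild type libraries in edgeR 4.0.16 (R 4.3.3): filterByExpr, TMM scaling, quasi-likelihood test, two-sided, sex as a covariate at P42, Benjamini-Hochberg adjustment over all genes tested, threshold 0.05. Log2 fold changes carry standard errors. CPM are per 1000000 TMM-scaled counts. Correlations used log2(CPM + 1) deviations from group means, with exact permutation within an age and 100000 rearrangements over both ages (Python 3.11.15, scipy 1.17.1). DESeq2 1.42.0 was an alternative. The edgeR code was tested on simulated counts. Promoters were searched in the 250 bases before the start only.

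The 10 genes and the 15 gene lists were chosen with earlier results of these data known. Named besides them are Polr3a, up to 3 genes of a list with the smallest p in cerebrum at P75, and the 8 genes most like the markers; Kiss1, Nwd2 and Wnt9b were named after their values were seen.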

Additional observations from a re-analysis of the deposited data

Results flagged for a closer look

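In 60 groups of 4 libraries (10 genes in 6 groups), 6 had a library whose gap to the nearest other exceeded Dixon's 95% critical value for its share of the range of the group, where chance gives about 5% of groups (1 in 20). Prkcd was 87.1 CPM in wild type cerebrum replicate 1 at P42, with the other 3 at 18.3 to 22.2 CPM. Tcf7l2 stood out in 3 groups: 60.6 CPM in wild type cerebrum replicate 3 at P75 (others 45.8 to 48.3), 5.35 CPM in mutant cerebellum replicate 3 (others 9.38 to 9.75) and 50.5 CPM in wild type cerebellum replicate 2 (others 8.83 to 11.2). Plekhg1 was 66.3 CPM in mutant cerebrum replicate 2 at P75 (others 51.5 to 52.7), and 55.4 CPM in wild type cerebrum replicate 2 at P75 (others 44.4 to 46.2).

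Adarb1 differed in direction between the ages: its log2 fold change was -0.33 in cerebrum at P75, with all mutants below all wild types, and 0.62 at P42, with all mutants above. The difference between the ages was not tested.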

How the results depend on the processing

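Over the alternatives, Prkcd kept a higher and Adarb1 a lower value in cerebrum at P75 in every leave-one-out fit, with ranges of 0.29 to 0.33 and -0.40 to -0.28. Adarb1 at P75 missed the threshold with the thalamic marker covariate (-0.30) and was 0.040 with the Prkcd covariate, which separates the genotypes at P75. Plekhg1 at P75 passed it with the replicate block (0.22), with library size scaling (0.33) and without wild type replicate 2. Wnt3 at P75 passed it with library size scaling (0.62) and with the other thalamus list as covariate (0.73). The cause was not tested. Library size scaling, the other thalamus and Prkcd covariates and the fit without mutant replicates 3 and 4 were chosen after seeing the data.

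In cerebrum at P42 edgeR called 3 genes (2299 had an unadjusted p under 0.05), against 233 with DESeq2, 1312 with no filter, 8 with the replicate block, and 0 with the stricter filter (1 CPM in 4 libraries), without the sex term, with library size scaling, with each of the 3 covariates and without mutant replicates 3 and 4, and from 0 to 11 with a library left out. In cerebellum 2 genes were called, against 41 with DESeq2, 153 with no filter, 24 with the Prkcd covariate, 1 with the replicate block, the marker covariate, the other thalamus covariate or no sex term, and 1 to 2 with a library left out. At P75 2502 were called, against 623 with the marker covariate, 0 with the Prkcd covariate, and 1356 to 2783 with a library left out. Replicate numbers shared by the genotypes are not stated to mark a shared litter, batch or day, and not every same-numbered pair correlated above 0.1, so pairing was not assumed: correlations of same-numbered libraries ran from 0.01 to 0.30 in cerebrum at P42, -0.45 to 0.08 in cerebellum and 0.05 to 0.23 at P75, where, as a hint from the data, each library went best with its own number and the replicate block called 3537 genes.

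The median correlation was 0.46 over both ages and 0.31 to 0.52 with a library left out, and turned to -0.14 in P75 libraries only. The median over 6 genes of the mutant minus wild type difference in relative level was -0.19 at P42. It was -0.38 to -0.03 with a library left out, and 0.15 without Prkcd in the marker mean. At P75 this median difference was -0.09 and stayed within -0.12 to -0.06. Such differences of single genes at P42 turned to 0.063 (pseudocount 0.1) and 0.24 (without Prkcd) for Wnt3 and 0.064 (without Prkcd) for Plekhg1. They turned to -0.12 and -0.0029 (without Lef1) for Slitrk6 and Synpo2. With a library left out they ran from -0.27 to 0.11 for Wnt3 and -0.011 to 0.49 for Synpo2. For Vangl1 at P75 they were 0.028 (without Prkcd), 0.0090 (without Lef1) and, with a library left out, -0.071 to 0.025.

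Some uncalled log2 fold changes also changed sign. In cerebellum these were Plekhg1 (0.0023 with RLE scaling, 0.0029 with DESeq2, 0.020 with the marker covariate, -0.13 to 0.076 with a library left out), Prkcd (-0.019 with the replicate block, -0.32 to 0.25), Slc17a6 (-0.20 with the replicate block, -0.043 and -0.25 with the other thalamus and Prkcd covariates, -0.64 to 0.64), Slitrk6, Vangl1 and Adarb1 (0.14, 0.14 and -0.087 with the marker covariate), Vangl1 (-0.19 to 0.0046) and Adarb1 (-0.036 to 0.10). At P75 they were Synpo2 (0.059, 0.081 and 0.32 with the marker covariate, library size scaling and the Prkcd covariate, -0.075 to 0.019 with a library left out), Tcf7l2 (0.094 with library size scaling, 0.068 with the other thalamus covariate, -0.057 to 0.090), Slc17a6 (0.045 with library size scaling) and Vangl1 (-0.12 and -0.45 with the marker and Prkcd covariates, -0.0015 to 0.22). At P42 Slc17a6 turned to -0.32 with the other thalamus covariate.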

Other observations

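Wnt9b, another Wnt ligand gene, lies near Wnt3 in the deposited coordinates (mm10): Wnt9b at chr11:103727364-103749821 on the minus strand and Wnt3 at chr11:103774150-103817957 on the plus strand, with 24328 bases between them. Wnt9b had 4.28, 2.99, 4.38 and 6.28 CPM in mutant cerebrum at P42, against 1.98, 0.222, 0.370 and 0.624 CPM in wild type. All mutants lay above all wild types, with a log2 fold change of 2.61 ± 0.59, and wild type replicate 1, the wild type highest in Wnt3, was also the highest in Wnt9b. Of the 15 other ligands tested it was the only gene whose groups did not overlap (all mutants lay above all wild types in 3.53% of all genes), and it was not called (edgeR adjusted p = 0.275). At P75 Wnt9b averaged 2.60 ± 1.10 CPM in mutants, against 1.72 ± 0.58 CPM for wild types (SD, n = 4 each), and in cerebellum 2.30 ± 0.83 and 1.63 ± 0.98 CPM. Its log2 fold change was 0.60 ± 0.35 at P75 and 0.43 ± 0.43 in cerebellum, with edgeR adjusted p of 0.283 and 0.984. The gene was chosen after its values were seen.

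The ratio of Synpo2 to Prkcd in mutant cerebrum at P42 was 0.264, 0.284, 0.327 and 0.272 CPM per CPM of Prkcd, while wild types had 0.250 in replicate 1, the wild type high in Prkcd, and 0.495 to 0.676 in the other 3. At P75 the ratio was 0.262 to 0.295 in mutants and 0.297 to 0.395 in wild types. The ratio of Plekhg1 to Prkcd at P42 was 0.408 to 0.451 in mutants, 0.425 in wild type replicate 1 and 0.964 to 2.21 in the other wild types. A steady ratio in mutants was thus not particular to Synpo2. The ratio of Slc17a6 to Prkcd ran from 0.488 to 1.46 in mutants and from 0.604 to 7.56 in wild types at P42. The ratios were chosen after their values were seen and were not tested.

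Other marker lists were also tested in cerebrum at P75 with edgeR's quasi-likelihood test and Benjamini-Hochberg adjustment. Of all genes 7.66% rose and 6.62% fell there, and 28.8% had an unadjusted p under 0.05. With lists this small, nothing is read from 1 or 2 called genes. Of 12 hypothalamic genes 2 rose, Avp, the vasopressin gene (0.74 ± 0.20), and Agrp, which encodes agouti-related peptide (1.17 ± 0.33). In the choroid plexus list Ttr, the transthyretin gene, rose (0.48 ± 0.12), as 1 of 8. Htr5b, a serotonin receptor gene, fell as 1 of 7 habenula genes (-0.79 ± 0.25), and the calbindin gene Calb1 as 1 of 4 cerebellar neuron genes (-0.48 ± 0.09). The 9 monoamine and 10 oligodendrocyte genes tested were not called, with 0 and 4 at an unadjusted p under 0.05. Among cortical and striatal genes the falls included Tbr1 (-0.70), a transcription factor of deep-layer cortical neurons, and the dopamine receptor gene Drd2 (-0.88). In cerebellum no gene of these lists, the Wnt lists or the paralogs was called. There 10 of the 162 list entries tested had an unadjusted p under 0.05, against 4.65% of all genes. Of these 10, 5 were among the 8 choroid plexus genes, all 8 of them negative with a median log2 fold change of -1.36, and in 6 of the 8 all mutants lay below all wild types, as in 1.58% of genes. The choroid plexus sum was 143 to 1796 CPM in mutant cerebellum, lowest in mutant replicate 1, and 2356 to 3609 CPM in wild type cerebellum.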
